A study of Mus musculus with 7 samples.

Results

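The genes described here encode the acute phase plasma proteins, together with a few intracellular proteins and regulators of the same response, measured in regenerating mouse liver with and without the lymphotoxin beta receptor (LTBR). The set was given as a list of 33 gene symbols, and every probe that the platform annotation assigns to one of them was taken. All 33 were on the array, with 53 probes of 45281 in all. Of the 33 genes 32 had at least 1 probe bright enough to test, and they are set against the 13193 genes or unnamed probes that passed the same filter. Orm3 was the exception.

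The study compared 4 liver samples of LTBR KO mice with 3 of WT mice, all of strain C57BL/6 and all taken 12 h after partial hepatectomy (PHx), an operation that removes part of the liver and sets the rest to regenerate. Each sample is total RNA of whole liver on its own single-colour Illumina bead array. The labels name neither the allele, age nor sex. They also do not say that the samples come from separate animals, and the p-values below cover only the spread among samples, which may be technical. No unoperated liver is among the samples analysed here, so a difference present before PHx and one that arose after it cannot be told apart.

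Hepatocytes answer inflammation and surgical injury with the acute phase response. Interleukin 6, acting through its receptor and the transcription factor STAT3, and interleukin 1 and tumour necrosis factor, acting through NF-kB and C/EBP factors, raise the synthesis of the positive reactants, whose plasma levels climb. The negative reactants, many of them carriers made in large amounts by the resting liver, decline at the same time. In the mouse serum amyloid A and serum amyloid P are prominent positive reactants, whereas C-reactive protein, the leading one in humans, responds little.

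The starts of 4 of these genes are shown because their array values fell into partly different patterns across the samples, as described further on. Saa1, Saa2 and Orm2 encode inducible reactants that were high and low on largely the same arrays, and Saa4 is the constitutive relative that lies beside Saa1. Saa4 shared part of that pattern, with KO sample 3 the lowest of KO and WT sample 3 the highest of WT. A link between the motifs and these patterns was not tested. The windows hold 250 bases before and 50 after the annotated start, 5′ to 3′ on the gene's strand, from RefSeq for GRCm38.p6. They lie at chr7:46742931-46743230 on the minus strand for Saa1, chr7:46751583-46751882 on the plus strand for Saa2, chr7:46732554-46732853 on the minus strand for Saa4, and chr4:63362199-63362498 on the plus strand for Orm2. Capitals mark matches to the C/EBP core TTNNGNAA on either strand.
Saa1: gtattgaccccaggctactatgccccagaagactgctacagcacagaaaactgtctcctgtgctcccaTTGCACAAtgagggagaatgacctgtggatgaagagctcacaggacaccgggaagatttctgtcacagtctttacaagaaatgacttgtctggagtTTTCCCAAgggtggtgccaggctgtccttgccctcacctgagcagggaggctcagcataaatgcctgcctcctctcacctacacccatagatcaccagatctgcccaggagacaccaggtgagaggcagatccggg
Saa2: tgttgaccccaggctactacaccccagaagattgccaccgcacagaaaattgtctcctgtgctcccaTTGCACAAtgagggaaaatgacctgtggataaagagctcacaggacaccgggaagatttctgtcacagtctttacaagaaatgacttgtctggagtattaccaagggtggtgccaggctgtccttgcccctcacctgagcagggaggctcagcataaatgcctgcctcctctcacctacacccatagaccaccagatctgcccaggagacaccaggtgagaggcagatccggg
Saa4: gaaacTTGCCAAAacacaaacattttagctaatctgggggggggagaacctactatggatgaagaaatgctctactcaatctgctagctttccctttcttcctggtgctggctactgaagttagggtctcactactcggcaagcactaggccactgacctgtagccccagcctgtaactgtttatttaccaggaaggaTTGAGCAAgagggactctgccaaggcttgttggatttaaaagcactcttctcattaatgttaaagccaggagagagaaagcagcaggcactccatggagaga
Orm2: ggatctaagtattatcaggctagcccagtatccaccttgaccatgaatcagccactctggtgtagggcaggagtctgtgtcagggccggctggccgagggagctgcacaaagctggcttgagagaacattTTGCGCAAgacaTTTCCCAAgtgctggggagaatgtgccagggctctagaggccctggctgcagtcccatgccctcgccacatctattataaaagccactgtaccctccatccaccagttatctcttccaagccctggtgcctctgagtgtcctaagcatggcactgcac

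The Saa1 window held matches whose first bases lay 182 and 86 bases before the start, and the otherwise similar Saa2 window held the match at 183 bases but none at the other position. In Orm2 a pair of matches lay at 120 and 108 bases, and in Saa4 at 245 and 52 bases. Windows were listed for 27 of the 33 genes, with the first listed start used where a gene had several. The C/EBP core was present in 19 of the 27 (70.4%), against 40.7% of the 27025 windows of all genes. The STAT core TTCNNNGAA, which reads the same on both strands, was found in 3 of 27 (11.1%), against 8.47% of all windows. These were Steap4, Apcs and Itih4. A kappa B core, GGGA and TTCC separated by a pair of bases, was in 0 of 27 and in 1.43% of all windows. The 3 motifs were counted independently of any overlap between them. A match is a description of the letters and not evidence of binding.

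Many of the genes are neighbours. Saa3, Saa4, Saa1 and Saa2 lie within chr7:46711998-46754313, Orm1, Orm3 and Orm2 within chr4:63344556-63365877, and the fetuin genes Ahsg and Fetub with Hrg within chr16:22892015-22961659 (GRCm38.p6). None of the 33 (0) lies on chromosome 6, which carries Ltbr. Close paralogs such as Saa1 and Saa2, or Orm1 and Orm2, can share signal on an array, and probe sequences were not used here.

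Values below are log2 intensities after background correction. The intensity floor that separates signal from background was 93.6 on the deposited scale, or 4.99 after correction, and on every array 18508 probes lay above it. The deposited values were normalized to the same distribution on every array, from 72.6 to 30878, and 10 of the 33 genes lay among the 100 brightest probes on all 7 arrays, where that shared ceiling limits how far values can differ. The targeted gene Ltbr was measured at 5.86, 6.23, 6.08 and 5.61 in KO samples 1 to 4, against 6.63, 7.04 and 7.28 in WT samples 1 to 3. All 4 KO values lay below all WT values (log2 difference KO minus WT -1.04, SE 0.20, adjusted p = 0.088 by limma). The hepatocyte genes Apoa1 and Ttr lay among the 23 brightest probes on every array, whereas the only Alb probe was dim, at 5.92 to 7.76 over all arrays. Over the genes tested, pairs of samples of 1 genotype correlated at 0.967 to 0.987, and pairs of different genotype at 0.960 to 0.977.

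None of the 32 tested genes passed the threshold in the comparison of KO with WT (0 members at an adjusted p under 0.05 by limma, against 9 of 13193 over all genes, 0.0682%). Those 9 were 8 lower in KO (0.0606%) and 1 higher (0.00758%). Among the 32 tested members the smallest adjusted p was 0.14 by limma, for Fetub. At an unadjusted p under 0.05 there were 3 members, Fetub, Saa4 and Lbp, all with lower KO means. That is 9.38% of the members, against 14.8% of all genes tested (6.52% lower and 8.25% higher). KO and WT values did not overlap for 2 members (6.25%), Fetub with lower and Cebpb with higher KO values, against 13.1% of all genes (5.48% lower and 7.62% higher). Both shares lay below the background counted in either direction. In the lower direction alone the 9.38% lay above the 6.52% of all genes, and 0 members had an unadjusted p under 0.05 with a higher KO mean. Over probes 5 of 47 (10.6%) had an unadjusted p under 0.05, all 5 lower in KO, against 14.2% of all kept probes in either direction and 7.34% in the lower one. After adjustment 0 of the 47 passed, against 0.0639% of all kept probes.

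The 20 tested positive reactants were evenly divided, 10 with a difference above 0 and 10 below, with a median log2 difference of 0.02 against 0.03 over all genes tested. All 6 negative reactants lay below 0, with a median of -0.20, where 45.7% of all genes lay below 0. All 9 hepatocyte markers, a list that shares Ttr with the negative reactants, also lay below 0, with a median of -0.16, and their part in these values was not tested. The marker differences ran from -0.40 to -0.01. Some markers were dim, with Fgb above the floor on 4 arrays and Tat on 6. Of the genes of constitutive or mixed response 2 of 4 lay below 0. Both transcription factor genes lay above 0.

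**Figure D1:**
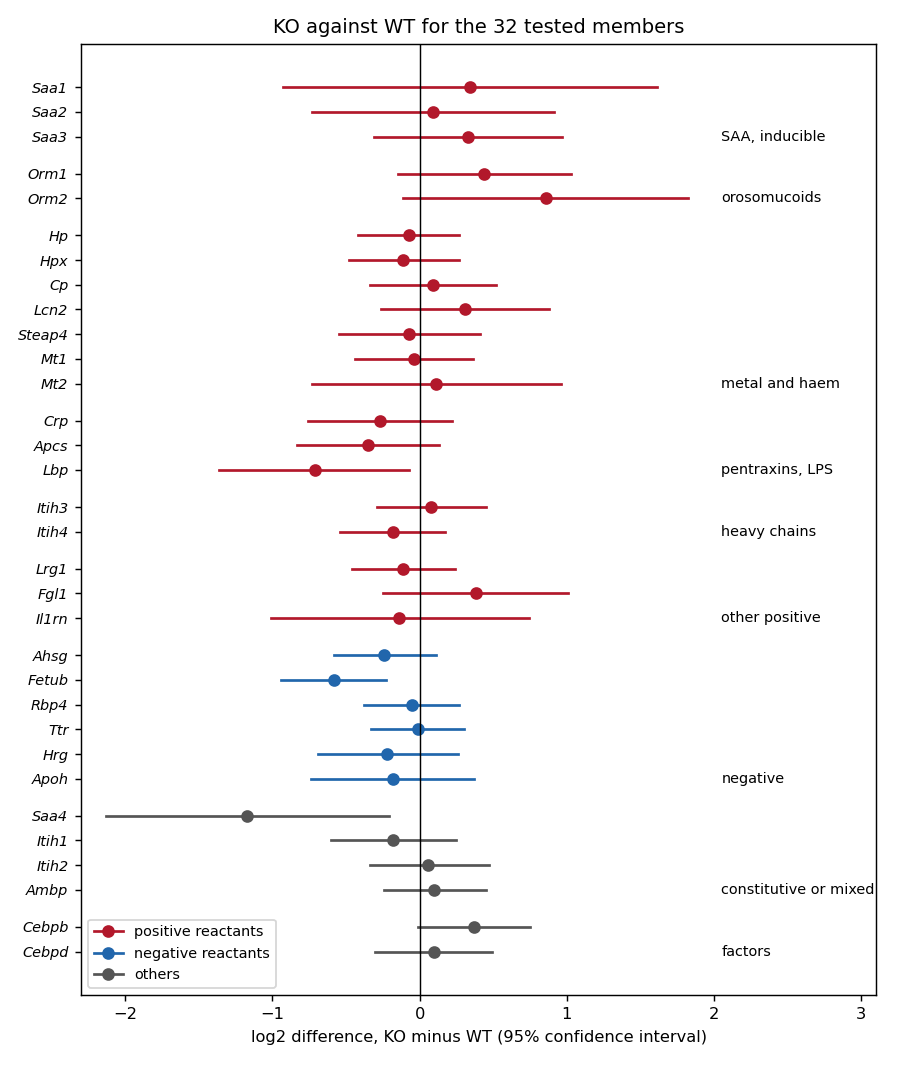
Log2 differences, KO minus WT, of the 32 tested genes (points) with 95% confidence intervals from limma (lines), grouped by role from top to bottom. The intervals of Saa4, Lbp and Fetub lie wholly below 0, no interval lies wholly above 0, and none of the 32 passed after adjustment over all genes.

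Serum amyloid A proteins replace other apolipoproteins on high-density lipoprotein during the acute phase. Saa1 and Saa2 are made mainly by hepatocytes, and Saa3 is also made by macrophages and fat cells. Saa1 had log2 intensities of 13.86, 14.10, 12.00 and 14.60 in KO samples 1 to 4, against 12.52, 12.82 and 14.56 in WT samples 1 to 3. KO samples 1, 2 and 4 and WT sample 3 were high, KO sample 3 and WT samples 1 and 2 were low, and the groups overlapped. The difference was 0.34 (SE 0.58), with a 95% interval of -0.93 to 1.61 that spans large changes either way. The dimmer Saa1 probe, at 7.59, 8.04, 6.29 and 8.09 in KO and 7.07, 6.82 and 8.94 in WT, divided the arrays the same way and differed by -0.11 (SE 0.51).

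Saa2 was measured at 7.84, 8.22, 7.50 and 8.98 in KO, against 7.59, 7.63 and 8.92 in WT. KO sample 4 and WT sample 3 were highest, KO sample 3 and WT samples 1 and 2 were lowest, and the difference was 0.09 (SE 0.37). Saa3 gave 7.34, 7.06, 6.57 and 8.05 in KO, against 7.24, 6.85 and 6.70 in WT. Here KO sample 4 was highest while WT sample 3 was the lowest of WT, unlike Saa1 and Saa2, and the difference was 0.33 (SE 0.29). It was 0.06 without KO sample 4 and 0.56 without KO sample 3.

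Saa4 encodes the constitutive member, which is carried on high-density lipoprotein also in the absence of inflammation. It had 7.37, 7.38, 6.31 and 8.46 in KO, against 7.95, 8.32 and 9.38 in WT. As for Saa1, KO sample 3 was the lowest and WT sample 3 the highest of its group, but KO samples 1, 2 and 3 all lay below every WT sample. The difference of -1.17 (SE 0.44, 95% interval -2.13 to -0.21), 2.25-fold, was the largest in size among the members and had an adjusted p of 0.25 by limma. With 1 array left out it ran from -1.53 without KO sample 4 to -0.76 without WT sample 3. It was -0.40 without both WT sample 3 and KO sample 3, a choice made after seeing the data.

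Orosomucoids are small, heavily glycosylated plasma proteins that bind drugs and lipids. Orm1 had 14.64, 14.70, 13.72 and 14.57 in KO, against 13.59, 13.86 and 14.47 in WT. Orm2 had 12.02, 12.17, 10.60 and 12.37 in KO, against 10.49, 10.38 and 11.94 in WT. For both genes KO samples 1, 2 and 4 lay above every WT sample and KO sample 3 lay among the WT samples. The differences were 0.44 (SE 0.27) for Orm1 and 0.86 (SE 0.44, 95% interval -0.11 to 1.82) for Orm2. The Orm2 difference was 1.81-fold, with an adjusted p of 0.40 by limma. With 1 array left out the Orm1 difference ran from 0.25 without WT sample 1 to 0.69 without WT sample 3, and that of Orm2 from 0.58 without WT sample 2 to 1.36 without WT sample 3. The single Orm3 probe had 4.73, 4.37, 5.39 and 4.60 in KO, against 4.12, 4.54 and 4.67 in WT. It was above the floor on 1 array, KO sample 3, and was not tested.

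**Figure D2:**
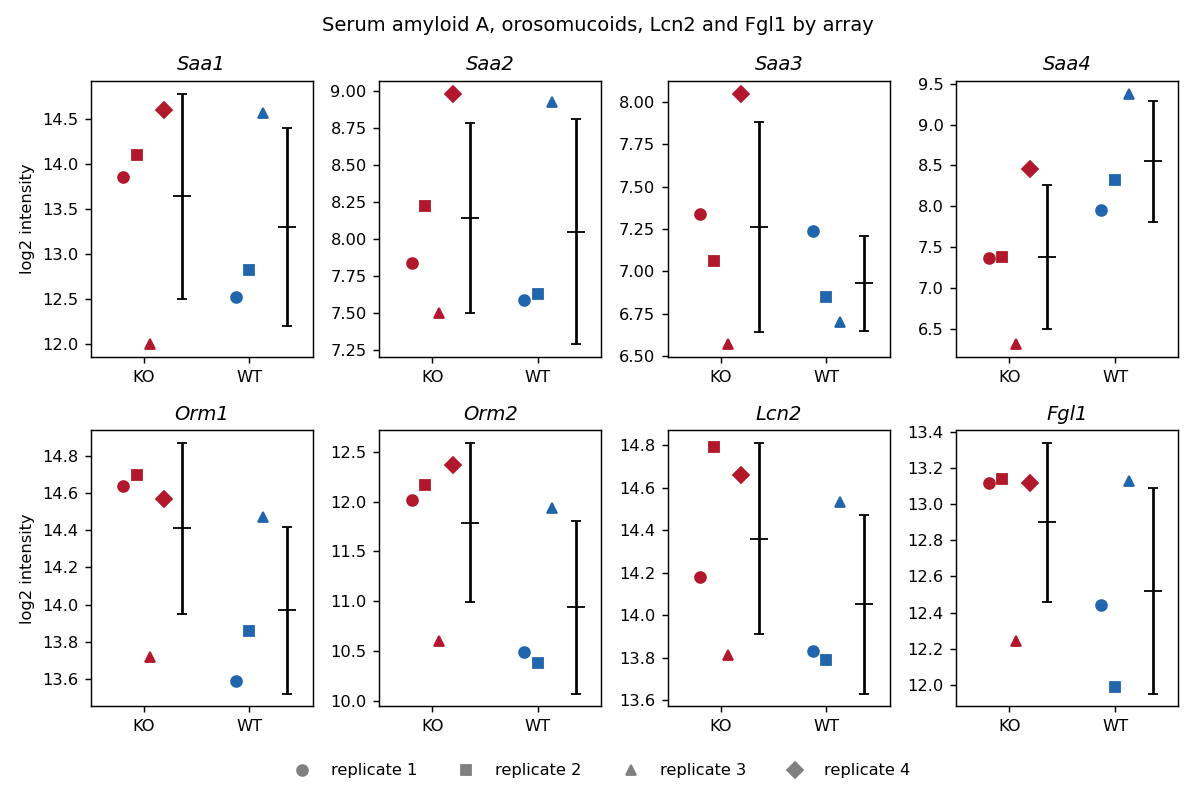
Log2 intensity by array for Saa1, Saa2, Saa3, Saa4, Orm1, Orm2, Lcn2 and Fgl1, each panel with its own y axis that does not start at 0. Symbols are arrays (KO left, WT right), and bars are the group mean and SD. In Saa1, Saa2, Orm1, Orm2, Lcn2 and Fgl1 KO replicate 3 is the lowest of the KO arrays and WT replicate 3 the highest of the WT arrays.

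Other positive reactants bind haem, iron, copper or zinc. Haptoglobin (Hp) captures free haemoglobin and haemopexin (Hpx) captures haem, ceruloplasmin (Cp) carries copper, and lipocalin 2 (Lcn2) sequesters bacterial siderophores. Lcn2, which neutrophils also make, had 14.18, 14.79, 13.81 and 14.66 in KO, against 13.83, 13.79 and 14.53 in WT. It was high and low on the same arrays as Saa1, with KO sample 1 between them, and differed by 0.31 (SE 0.26), or by 0.16 without KO sample 2 and 0.55 without WT sample 3. The brightest Hp probe varied little, at 14.22 to 14.60 in KO and 14.43 to 14.57 in WT (difference -0.07, SE 0.16), and the other Hp probes gave -0.05 and -0.09. Hpx spanned 13.93 to 14.43 in KO and 14.10 to 14.38 in WT (-0.11, SE 0.17).

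Cp spanned 12.33 to 12.95 in KO and 12.35 to 12.87 in WT at its brightest probe (0.09, SE 0.20). Its 3 other kept probes gave -0.31, -0.57 and 0.23, so no direction can be given for this gene. Steap4, a metalloreductase of iron and copper, had 5.43 to 6.17 in KO and 5.43 to 6.06 in WT (-0.07, SE 0.22).

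The metallothioneins bind zinc and copper inside cells. Mt1 was the brightest probe on the array in some samples, with 14.53, 14.49, 14.91 and 14.87 in KO, against 14.44, 14.87 and 14.91 in WT (-0.04, SE 0.18). Mt2, its neighbour on chromosome 8, had 9.03, 8.93, 10.64 and 9.04 in KO, against 9.65, 9.54 and 8.70 in WT. KO sample 3 stood above all others for Mt2 and WT sample 3 was the lowest of all arrays, the reverse of Saa1. The Mt2 difference was 0.11 (SE 0.39) with all arrays and -0.60 (SE 0.16) without these 2 arrays. They were left out after seeing the data and hold the extreme Mt2 values. Leaving them out could therefore only lower the difference.

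Pentraxins and the lipopolysaccharide-binding protein recognise microbes and dying cells. Lbp had 8.13, 8.64, 8.56 and 9.65 in KO, against 9.21, 9.60 and 9.55 in WT. KO samples 1, 2 and 3 lay below every WT sample, while KO sample 4 was the highest of all 7. The difference was -0.71 (SE 0.30), 1.64-fold, with an unadjusted p of 0.034 and an adjusted p of 0.29 by limma. With 1 array left out it ran from -1.02 (adjusted p = 0.12 by limma) without KO sample 4 to -0.51 (adjusted p = 0.58) without KO sample 1.

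Apcs, which encodes serum amyloid P, spanned 10.22 to 10.87 in KO and 10.40 to 11.22 in WT (-0.35, SE 0.22). Crp spanned 11.59 to 12.39 in KO and 11.89 to 12.58 in WT (-0.27, SE 0.22). All 3 genes of this group lay below 0, and the values of KO and WT overlapped in each.

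The inter-alpha-trypsin inhibitor heavy chains encoded by Itih1, Itih2 and Itih3 stabilise hyaluronan in the extracellular matrix. Ambp encodes bikunin, the light chain that these chains are joined to, as part of a precursor with alpha-1-microglobulin. Itih4 is a further gene of the heavy chain family, and Itih3 and Itih4 are its positive reactants. At its brightest probe Itih4 had 13.22, 13.47, 13.64 and 13.59 in KO, against 13.61, 13.58 and 13.79 in WT (-0.18, SE 0.16). A further Itih4 probe separated the groups, with 12.54, 12.76, 12.55 and 13.01 in KO and 13.13, 13.29 and 13.49 in WT (-0.59, SE 0.18, adjusted p = 0.16 by limma over all kept probes). The remaining Itih4 probe differed by -0.18, so all 3 lay below 0 but by unequal amounts.

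Itih3 differed by 0.08 (SE 0.17) at its brightest probe and by 0.03 at the other. Itih1 spanned 12.39 to 13.04 in KO and 12.56 to 12.95 in WT (-0.18, SE 0.19). Itih2 spanned 12.48 to 12.67 in KO and 12.14 to 12.87 in WT (0.06, SE 0.19), and Ambp 14.44 to 14.82 in KO and 14.39 to 14.52 in WT (0.10, SE 0.16). Of these chains Itih1, Itih3 and Itih4 are neighbours on chromosome 14.

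Fgl1, a liver-derived relative of fibrinogen that acts on hepatocyte growth and T cells, had 13.12, 13.14, 12.24 and 13.12 in KO, against 12.44, 11.99 and 13.13 in WT. KO samples 1, 2 and 4 and WT sample 3 were nearly equal and high, and the other 3 arrays were low. The difference was 0.38 (SE 0.29), and the other kept probes gave 0.23 and 0.03. With 1 array left out it ran from 0.12 without WT sample 2 to 0.69 without WT sample 3. Lrg1, a leucine-rich glycoprotein that modulates TGF-beta signalling, spanned 13.59 to 14.01 in KO and 13.74 to 13.96 in WT (-0.11, SE 0.16).

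Il1rn encodes the receptor antagonist of interleukin 1, which macrophages, neutrophils and hepatocytes can make. Of its 4 probes 1 passed the filter, with 5.32, 5.29, 6.37 and 5.57 in KO, against 6.93, 5.14 and 5.25 in WT (-0.14, SE 0.40). KO sample 3 and WT sample 1 were high and the other arrays lay near the floor.

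The negative reactants include the fetuins (Ahsg and Fetub), the retinol and thyroxine carriers Rbp4 and Ttr, the histidine-rich glycoprotein (Hrg) and apolipoprotein H (Apoh). Fetub, which encodes fetuin B, an inhibitor of the egg-coat protease ovastacin, had 9.69, 9.92, 9.88 and 9.87 in KO, against 10.35, 10.68 and 10.25 in WT. All 4 KO values lay close together and below all WT values. The difference of -0.58 (SE 0.16, 95% interval -0.94 to -0.23), 1.5-fold, had an unadjusted p of 0.0039 and an adjusted p of 0.14 by limma. Leaving out single arrays gave -0.67 to -0.46.

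Hrg had 9.30, 9.58, 9.84 and 9.77 in KO, against 9.78, 10.30 and 9.44 in WT at its brighter probe, where the groups overlapped (-0.22, SE 0.22). Its dimmer probe separated the groups, with 6.59, 6.55, 6.64 and 6.63 in KO, against 7.29, 7.65 and 7.05 in WT (-0.72, SE 0.17, adjusted p = 0.10 by limma over all kept probes). The probes thus shared a sign but not a size. Ahsg, the gene of fetuin A next to Fetub, had 14.01 to 14.39 in KO and 14.39 to 14.60 in WT (-0.24, SE 0.16), with -0.01 at its other probe.

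The retinol and thyroxine carriers spanned narrow ranges. Ttr spanned 14.47 to 14.56 in KO and 14.44 to 14.60 in WT (-0.01, 95% interval -0.33 to 0.30). Rbp4 spanned 11.93 to 12.18 in KO and 12.00 to 12.21 in WT (-0.05, 95% interval -0.38 to 0.27). Apoh spanned 11.32 to 11.88 in KO and 11.13 to 12.21 in WT (-0.18, SE 0.25).

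C/EBP beta and C/EBP delta are transcription factors that drive many positive reactants. Cebpb had 12.11, 12.65, 12.45 and 12.17 in KO, against 11.97, 11.92 and 12.04 in WT. All 4 KO values lay above all WT values, with KO samples 2 and 3 highest. The difference was 0.37 (SE 0.17, 95% interval -0.01 to 0.75), 1.29-fold, with an unadjusted p of 0.056 and an adjusted p of 0.35 by limma. The brighter Cebpd probe differed by 0.10 (SE 0.18) and the other by -0.41 (SE 0.22), so its direction depends on the probe.

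**Figure D3:**
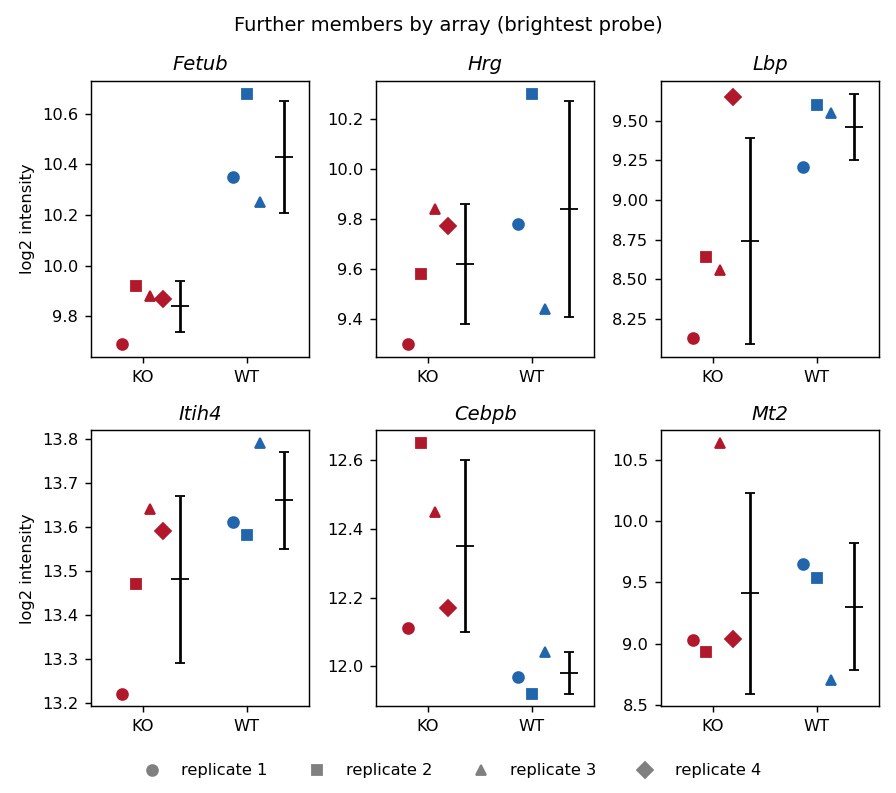
Log2 intensity by array for Fetub, Hrg, Lbp, Itih4, Cebpb and Mt2 at the brightest probe, each panel with its own y axis that does not start at 0. Symbols are arrays (KO left, WT right), and bars are the group mean and SD. The groups do not overlap for Fetub and Cebpb, KO replicate 4 stands apart from the other KO arrays for Lbp, and KO replicate 3 for Mt2.

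**Figure D4:**
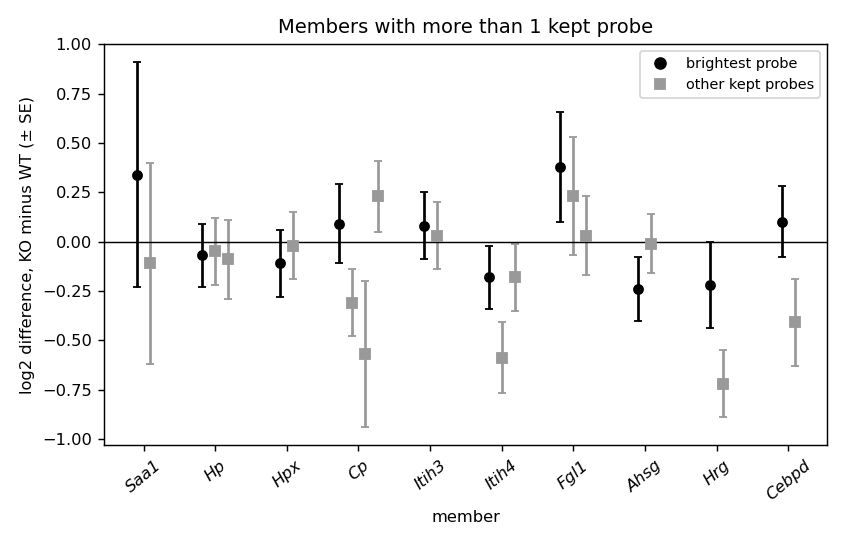
Log2 differences, KO minus WT, with SE for every kept probe of the 10 members that had more than 1, the brightest probe in black and the others in grey. The probes of Saa1, Cp and Cebpd differ in sign, and single probes of Itih4 (-0.59) and Hrg (-0.72) lie below the rest of their gene.

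Several members varied widely between samples of 1 genotype. KO sample 3 was the lowest of the KO samples for 13 of the 32 tested members (40.6%, against 31.7% of all genes tested), and WT sample 3 was the highest of the WT samples for 16 (50%, against 36.8%). Both held for 10 members (31.2%, against 15.3% of all genes), namely Saa1, Saa2, Saa4, Orm1, Orm2, Hp, Lcn2, Itih3, Fgl1 and Ahsg. This division of the arrays was noticed in the values, so these counts are a description. Within KO the SD was 1.14 for Saa1 and 0.80 for Orm2, and within WT it was 1.10 and 0.87.

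**Figure D5:**
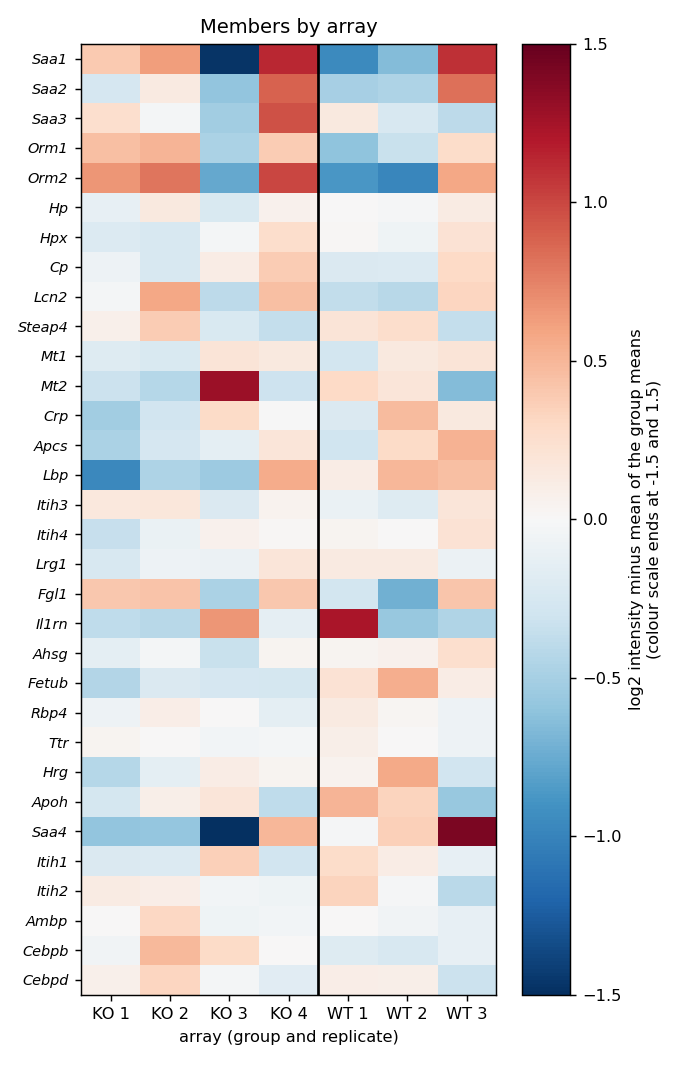
Log2 intensity of each tested gene minus the mean of its KO and WT means, by array, with KO arrays left of the line and WT arrays right. Saa1, Saa2, Orm1, Orm2, Lcn2 and Fgl1 are positive in KO 2, KO 4 and WT 3 and negative in KO 3, WT 1 and WT 2, while Mt2 has its highest value in KO 3.

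With KO sample 3 and WT sample 3 left out together, a choice made after seeing the data, 4 members passed at an adjusted p under 0.05 by limma, all with higher KO values. They were Orm2 (1.75, SE 0.18, adjusted p = 0.0028), Saa1 (1.52, SE 0.23, adjusted p = 0.011), Orm1 (0.92, SE 0.17, adjusted p = 0.022) and Fgl1 (0.91, SE 0.18, adjusted p = 0.028). These 4 are 12.5% of the members, against 4.31% of all genes under the same choice (569 of 13193), or 2.56% counting higher values alone. In all 4 KO sample 3 was the lowest of KO and WT sample 3 the highest of WT. Leaving both out could therefore only raise their differences. The p-values and shares under this choice are a description and not a test of genotype. In the remaining 5 arrays genotype coincides with the division just described, so genotype and that division cannot be told apart there. Leaving out 1 array at a time, KO sample 3 or WT sample 3 included, called 0 members.

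The list called inducers here held 34 genes of cytokines, receptors, kinases, adaptors and transcription factors, and also inhibitors of the response such as Socs3 and Nfkbia. Of these 25 were tested. None passed (0 called by limma), and 5 had an unadjusted p under 0.05, all lower in KO (20% of the list, against 6.52% of all genes). Il6ra, the interleukin 6 receptor, had 6.29, 6.22, 6.68 and 6.11 in KO, against 7.17, 7.26 and 7.24 in WT (-0.90, SE 0.17), with -0.12 and -0.15 at its other probes. Stat3 had 10.05, 9.77, 10.69 and 10.58 in KO, against 10.71, 10.63 and 11.19 in WT (-0.57, SE 0.24), with -0.76 and -0.78 at its other probes. Tnfrsf1a, a receptor of tumour necrosis factor whose gene lies on chromosome 6 as Ltbr does, differed by -0.70 (SE 0.18), and Il1rap, the accessory chain of the interleukin 1 receptor, by -0.45 (SE 0.18). The other Tnfrsf1a probes gave -0.72 and -0.55, and the other Il1rap probes -0.47, -0.47, -0.30, -0.29 and 0.13, the last opposite in sign. The adjusted p of these 4 genes lay between 0.088 and 0.30 by limma. The other gene of the 5 was Il6st, the signalling chain shared by interleukin 6 family receptors (-0.40, SE 0.17), named after its value was seen. The probes of Il6 and Tnf themselves did not pass the filter.

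Some members are also made by cells other than hepatocytes. Macrophage markers, 10 of 12 measured, had 9 differences above 0, where 7162 of the 13193 genes tested lay above 0. Their summed intensities were 3139 to 4771 in KO, against 2453 to 3066 in WT. Their sum was highest in KO sample 4 and lowest in WT sample 3. Saa1 and Saa2 were nearly equal on these arrays, at 14.60 and 8.98 in the former and 14.56 and 8.92 in the latter. Saa1, Saa2, Saa3, Orm2, Hpx, Cp, Lbp and Lrg1 had their highest values in KO sample 4. Other members were highest elsewhere, among them Orm1, Hp, Lcn2, Fgl1 and Ambp in KO sample 2 and Saa4, Apcs and Ahsg in WT sample 3. The share of all genes highest in each array was not counted. Lbp was at 9.65 in KO sample 4 and at 9.21 to 9.60 in WT, where every macrophage sum was lower than in any KO sample. Marco (1.71, SE 0.35, adjusted p = 0.088 by limma) and Vsig4 (0.75, SE 0.24, adjusted p = 0.19 by limma) led the macrophage list, of which 0 passed. Neutrophil markers, 5 of 12 measured, had sums of 759 to 1323 in KO, against 650 to 1721 in WT. The highest sum was that of WT sample 1, where Il1rn was highest but Lcn2, at 13.83, was among the lowest, and in KO sample 3, second highest for Il1rn, the sum was 925. Mmp8, Ngp, Camp, Ltf, Mpo and Elane did not pass the filter. Hepatocyte markers, 9 of 9 measured, summed to 79848 to 90176 in KO, against 88224 to 89179 in WT, with all 9 below 0 at a median of -0.16. Stellate cell markers, 7 of 7 measured, summed to 3591 to 5054 in KO, against 3275 to 4009 in WT. Of their differences 2 lay above 0 and 5 below, with a median of 0. They ran from -0.42 for Col1a1 to 0.43 for Dcn, the brightest of the list. Of 5 adipocyte markers 0 passed the filter. The part of these cells in the values above was not tested, and in whole liver fewer cells of a type and less RNA per cell cannot be told apart.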

How the data were processed

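The authors deposited 1 linear intensity per probe and array, already normalized between arrays, as the identical quantiles of the 7 columns show. Partek is the tool named in the submitters' processing notes; its version is not given in the sources read for it. A scanner table was left unused because the labels tie none of its 14 columns to a sample, and a chip batch was not tested.

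From these intensities, normexp in limma 3.58.1 (R 4.3.3, saddle estimator, offset 16) removed background before log2 was taken. The floor was the 0.95 quantile of background, modelled as normal around the intensity mode with the SD of values below it. Probes had to exceed it on 3 or more arrays, which 18776 of 45281 did, and the brightest kept probe stood for its gene. Of all probes, 34885 had 1 gene symbol, 18 several and 10378 none. RefSeq of GRCm38.p6 matched 34807 probes. The test of KO minus WT used lmFit and eBayes with no covariates, was two-sided, and was adjusted by Benjamini-Hochberg over all 13193 genes or unnamed probes that passed. The number of arrays limits the precision, with a median SE of 0.19. The procedure was tested on simulated data with independent noise in every gene and array. That simulation lacks the division of the arrays described above, so it does not show how the procedure performs under it.

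The members, lists and tests were chosen with earlier results of these data known. All members are named. Values in every array are given for the Saa and Orm genes and for members with an unadjusted p under 0.05, non-overlapping groups or a difference over 0.5. They are also given for members whose arrays or probes stood apart, chosen after their values were seen. Of the inducers the 4 of smallest p are named, with Il6st, the remaining one with an unadjusted p under 0.05, added.

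Results were recomputed with other choices of background correction, scaling, filter, probe, prior, weights and threshold, with samples of the same number as blocks, and without each array in turn. The block setting left out KO sample 4, which has no WT sample of the same number.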

Additional observations from a re-analysis of the deposited data

Results flagged for a closer look

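In 4 members 1 KO sample lay far from the other 3 by Dixon's criterion, which chance meets in about 1 in 20 groups, and in each it was KO sample 3. These are 12.5% of the 32 tested members. Over all 13193 genes tested a KO sample met the criterion in 5.66%, and KO sample 3 did in 3.03%. Its log2 intensity was 13.72 for Orm1, against 14.57 to 14.70 in the other KO samples. For Fgl1 it was 12.24, against 13.12 to 13.14. It was the highest KO sample for Mt2, at 10.64 against 8.93 to 9.04, and for Itih1, at 13.04 against 12.39 to 12.48. The cause was not tested.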

How the results depend on the processing

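Of the 13193 genes tested 9 were called with all arrays. The count was 1 with probes above the floor on all 7 arrays, 2 with a trended and robust prior, 3 with the mean of the kept probes, 4 without background correction, 19 without the filter, 81 at an adjusted p under 0.1, 955 with array quality weights and 569 without KO sample 3 and WT sample 3 together. Leaving out 1 array at a time gave 2 to 5. No member passed under these settings, with 2 exceptions. Array weights called 2 members, Orm2 and Fetub (6.25%, against 7.24% of all genes), and leaving out both samples called 4. The weights were lowest for the same samples, at 0.46 for KO sample 3 and 0.57 for WT sample 3. These 2 settings are therefore not independent of each other. With the replicate block, which also left out KO sample 4, the count was 3 genes and 0 members. Deviations from the group means of same-numbered samples correlated at -0.20, -0.04 and -0.30. Samples of different number were not compared in this way, so whether the replicate numbers pair the samples cannot be told from these values. The median of the negative reactants was -0.29 to -0.06 with 1 array left out, and -0.06 was the value without WT sample 2.

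Of the 32 members 19 kept the sign of their difference under every setting. The other 13 changed sign under at least 1 setting. With the mean of the kept probes the difference was -0.14 for Cp and -0.16 for Cebpd. Array weights gave -0.26 for Mt2 and 0.00 for Ttr. The replicate block gave -0.19 for Saa2, -0.02 for Cp and 0.04 for Steap4. Leaving out KO sample 4 with no blocks gave the same values for Saa2, Cp and Steap4. Without KO sample 3 and WT sample 3 it was 0.03 for Hp, -0.60 for Mt2, -0.10 for Itih2 and -0.02 for Cebpd. With 1 array left out the ranges were -0.19 to 0.04 for Mt1, -0.30 to 0.29 for Mt2, -0.05 to 0.03 for Ttr, -0.19 to 0.53 for Saa2, -0.02 to 0.26 for Cp, -0.27 to 0.05 for Steap4, -0.05 to 0.97 for Saa1, -0.45 to 0.44 for Il1rn, -0.52 to 0.03 for Apoh, -0.42 to 0.01 for Hrg, -0.12 to 0.24 for Itih2 and -0.04 to 0.17 for Cebpd. The causes were not tested.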
